A study of Mus musculus with 9 samples.

Results

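The genes described here encode lysosomal enzymes and membrane proteins, subunits of the vacuolar proton pump (V-ATPase) and 2 transcription factors, TFEB and TFE3. A list of 37 gene symbols defined the group, and each symbol was matched by Ensembl identifier to 1 of the 52661 gene rows of the deposited count table. The list held 18 lysosomal enzymes, counting 10 proteases, 7 glycosidases and acid ceramidase, besides 6 other lysosomal proteins, the 2 transcription factors and 11 V-ATPase genes. The rule used no measured value, and all 37 passed the filter on low counts that left 18408 genes for testing. The libraries were made from mouse embryonic fibroblasts, a connective tissue cell culture, of the C57BL/6 strain, immortalised with the T and t antigens in all groups. The treated group was Ctr1-null (Ctr1 -/-) and was given bathocuproine disulfonic acid (BCS), an extracellular copper chelator, at 500 uM for 48 hours per the sample labels, while the series text gives 500 mM. The untreated Ctr1-null group and the wild type group received no chelator, and each of the 3 groups had 3 libraries. The sample titles call the null cells FloxedCtr1, the cells grew in medium with modified N2, EGF and FGF-2, and the sources used here do not give the number of clones or say that replicates were separate cultures. No wild type cells with BCS were analysed here, so BCS was compared only within the null genotype, and Ctr1-null + BCS against wild type joins the genotype and the chelator.

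Lysosomes break down proteins, glycans and lipids with hydrolases that work at acid pH, and the V-ATPase supplies the acid by coupling ATP hydrolysis in its cytosolic V1 part to proton transport through its membrane-bound V0 part. TFEB and TFE3 are factors of the MiT/TFE family that enter the nucleus when nutrient signalling through mTORC1 is low and bind the CLEAR element, a palindrome around an E-box, near the start of many lysosomal genes. Ctr1, encoded by Slc31a1, imports copper at the cell surface with high affinity, and its loss lowers the copper that reaches copper-dependent enzymes.

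The promoter sequences show where the letters bound by MiT/TFE factors stand in the members. RefSeq promoter windows (GRCm38.p6, 300 bases each, 250 before to 50 after an annotated start) were found for 31 of the 37 members, in 39 windows. Both strands were searched for the E-box core CACGTG, the core with 1 flank of the consensus (GTCACGTG or its reverse complement) and the whole CLEAR palindrome with both flanks, each of which contains the one before it. The core stood in the windows of 14 members, 45.2% of the 31, against 8.09% of the 27025 genes in the RefSeq table. With 1 flank it stood in 10 members, 32.3%, against 2.55% of all genes, and the whole palindrome stood in 1 member, Cln3, against 0.37% of all genes. Of the V-ATPase members 3 of 8 held the core, 37.5%, and of the other members 11 of 23, 47.8%. Of the 81 other pathway genes with windows, 20 held the core, 24.7%, 14 held it with 1 flank, 17.3%, and 1 held the whole palindrome. As the CLEAR element is known from the starts of many lysosomal genes, these shares describe the list and were not tested. A match describes letters and is not evidence that a factor was bound there. For some of the members taken up below, the stretch of the window that held the core is given here on the strand of the gene. The core, and any flank that matched, is in capitals.
Ctsf, plus strand, chr19:4855066-4855111: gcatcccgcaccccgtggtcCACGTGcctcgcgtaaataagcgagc
Gaa, plus strand, chr11:119267803-119267848: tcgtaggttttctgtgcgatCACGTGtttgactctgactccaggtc
Gla, minus strand, chrX:134601174-134601252: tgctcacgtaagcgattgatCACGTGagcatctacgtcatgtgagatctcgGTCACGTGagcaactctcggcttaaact
Lamp1, plus strand, chr8:13159080-13159160: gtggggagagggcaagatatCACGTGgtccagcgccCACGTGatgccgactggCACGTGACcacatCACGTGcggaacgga
Atp6v0b, minus strand, chr4:117887330-117887387: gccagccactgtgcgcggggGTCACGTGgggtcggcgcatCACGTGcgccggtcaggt
Cln3, minus strand, chr7:126583330-126583405: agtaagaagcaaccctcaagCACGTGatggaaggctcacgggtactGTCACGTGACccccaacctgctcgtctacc
Glb1, plus strand, chr9:114401008-114401055: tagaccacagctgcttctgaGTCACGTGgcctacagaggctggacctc
Ctsd, minus strand, chr7:142387898-142388077: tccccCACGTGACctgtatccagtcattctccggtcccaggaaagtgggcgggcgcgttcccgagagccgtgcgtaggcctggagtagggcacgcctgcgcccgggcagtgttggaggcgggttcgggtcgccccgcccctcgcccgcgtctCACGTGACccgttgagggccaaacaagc
Lamp1 held 4 cores, the most of any member, between bases -61 and -15 from its start. Of the other members shown, Gla, Atp6v0b, Cln3 and Ctsd each held 2, and Ctsf, Gaa and Glb1 held 1 each, at -79, -140 and -48. Members with the core that are not shown are Mcoln1 (-71 and -45), Ctsa (-12 and 5), Naglu (-73), Atp6v1a (-131), Atp6v0d1 (-3) and Ctsl (-236). In Cln3, Ctsa, Atp6v1a and Ctsl the whole window with the core lies inside the annotated span of the gene. Positions there count from a start inside that span. For Cln3 and Ctsa it is 1 of 2 windows, and the other held no core. No core was found in the windows of Atp6v0c and Atp6ap1, and Asah1 had no window in the table.

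**Figure D1:**
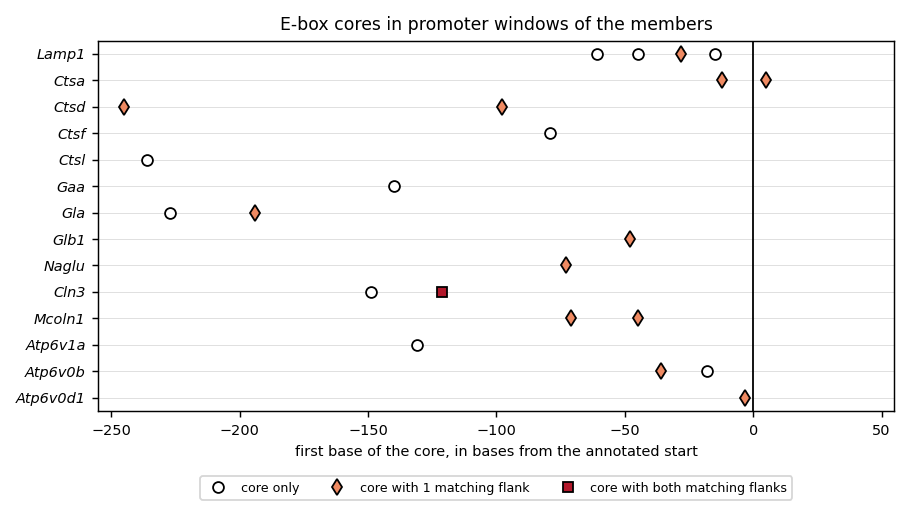
Position of the E-box core in the promoter windows of the 14 members that held it, in bases from the annotated start, with 1 point per core and the fill or shape showing whether neither, 1 or both flanks of the consensus matched. Lamp1 has 4 cores within 61 bases of its start, and Cln3 has the single core with both flanks, at -121 from a start inside the gene's span.

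Library totals ran from 38962036 to 57206337 counts, and values are given as CPM, counts scaled to a common library total, here with TMM factors. The targeted gene Slc31a1 (ENSMUSG00000066150.12) had 3.24, 2.54 and 1.69 CPM in Ctr1-null + BCS cells, 2.54, 3.88 and 1.40 CPM in Ctr1-null cells and 56.1, 54.8 and 54.9 CPM in wild type cells. Its log2 fold change was -4.47 ± 0.33 (SE) in Ctr1-null + BCS against wild type and -4.40 ± 0.33 in Ctr1-null against wild type (edgeR adjusted p = 0.00135 and 0.00303), which fits the genotype label of each library and does not check the BCS treatment. Of the fibroblast markers Col1a1, Col1a2 and Vim were abundant while Thy1, Dcn and Lum were under 1 CPM in the mean of all libraries, with Dcn at 2.31 CPM in wild type replicate 1. Of 9 macrophage markers 8 were under 1 CPM in the mean, with Csf1r just above it in some null libraries. Adgre1 and Tyrobp were at 0 counts in every library. The other macrophage marker, Cd14, had 4.20 to 6.42 CPM over all libraries. Of 6 osteoclast markers 4 were under 1 CPM in the mean, with Calcr and Dcstamp at 0. The others were Nfatc1 and Itgb3, the latter at 15.92 to 22.045 CPM over all libraries. Nfatc1 had 34.98, 33.2 and 35.7 CPM with BCS and 37.7, 37.4 and 46.04 CPM in Ctr1-null cells. In wild type cells Nfatc1 had 34.9, 19.57 and 19.96 CPM. The 6 osteoclast markers summed to 49.8 to 57.7, 55.5 to 67.8 and 39.4 to 57.3 CPM in these groups. The 7 adipocyte markers summed to 67.4 to 81.8 CPM with BCS and 58.8 to 85.5 CPM in Ctr1-null cells, against 24.4 to 30.3 CPM in wild type cells, with Adipoq, Plin1 and Cidec under 1 CPM in the mean. Pparg held most of this sum, at 44.1 to 50.7 CPM with BCS, 43.0 to 67.0 CPM in Ctr1-null and 19.1 to 21.2 CPM in wild type cells. The 6 markers of neural progenitors and glia summed to 119.7 to 145 CPM with BCS and 172 to 201 CPM in Ctr1-null cells, against 156 to 244 CPM in wild type cells. Nes held most of this sum, at 107 to 128 CPM with BCS, while Fabp7 went the other way. Fabp7 had 1.60 to 1.86 CPM with BCS and 0.0929 to 0.541 CPM in wild type cells. The 5 epithelial markers, mostly Krt19, summed to 128 to 164 CPM with BCS, 151 to 197 CPM in Ctr1-null and 165 to 193 CPM in wild type cells. The 4 endothelial markers summed to 23.7 to 31.9, 25.9 to 33.8 and 27.5 to 38.0 CPM in the same order of groups. The part of these markers in any result was not tested. In bulk libraries fewer cells of a kind and less RNA per cell cannot be told apart.

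Some libraries stood apart in these genes. Wild type replicate 1 had the highest wild type CPM in 18 of 18 lysosomal enzymes and the lowest in 6 of 6 V1 subunits, while over all tested genes it was highest in 44.4% and lowest in 41.7%. It also had 65.3 CPM of the fibroblast receptor gene Pdgfra, against 6.11 and 6.62 CPM in wild type replicates 2 and 3, with 38.6, 42.7 and 46.5 CPM in Ctr1-null + BCS cells and 41.2, 36.2 and 94.97 CPM in Ctr1-null cells. Ctr1-null replicate 1 was the lowest of its group in 22 of 37 members, 13 of them enzymes, against 41.5% of all genes. It had 11.1 CPM of Col3a1, against 81.6 and 73.3 CPM in Ctr1-null replicates 2 and 3. Col1a1 was 1354 CPM in it, against 2399 and 2327 CPM, Col1a2 838 against 1524 and 1387.5, and Pdgfrb 111 against 178 and 224. Vim went the other way, at 5296 against 5127 and 4910 CPM. Counts of members are therefore given with and without these libraries. The median coefficient of variation of the members within a group was 5.68% with BCS and 6.77% in Ctr1-null cells, against 9.46% in wild type cells.

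Per kilobase of transcript the members covered a wide range of levels, with the genes of lysosomal membrane and matrix proteins at the top and Ctsk at the bottom. Lamp1 was the most abundant, at 557 CPM per kb with BCS, 558 in Ctr1-null and 641 in wild type cells. Psap and Ctsd followed, with 478 and 433 CPM per kb with BCS, 413 and 338 in Ctr1-null and 422 and 361 in wild type cells. Atp6v0c, which encodes the proteolipid of the proton-carrying ring and is present in several copies per pump, was the most abundant V-ATPase transcript at 256 CPM per kb with BCS, 259 in Ctr1-null and 309 in wild type cells. Ctsk, the cathepsin of osteoclasts, was the lowest member at 0.259, 0.252 and 0.241 CPM per kb in the same order of groups, next to Tfeb at 3.21, 2.54 and 3.48. Tfe3 stood at 20.9, 21.2 and 21.5 CPM per kb in these groups, several times the level of Tfeb.

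**Figure D2:**
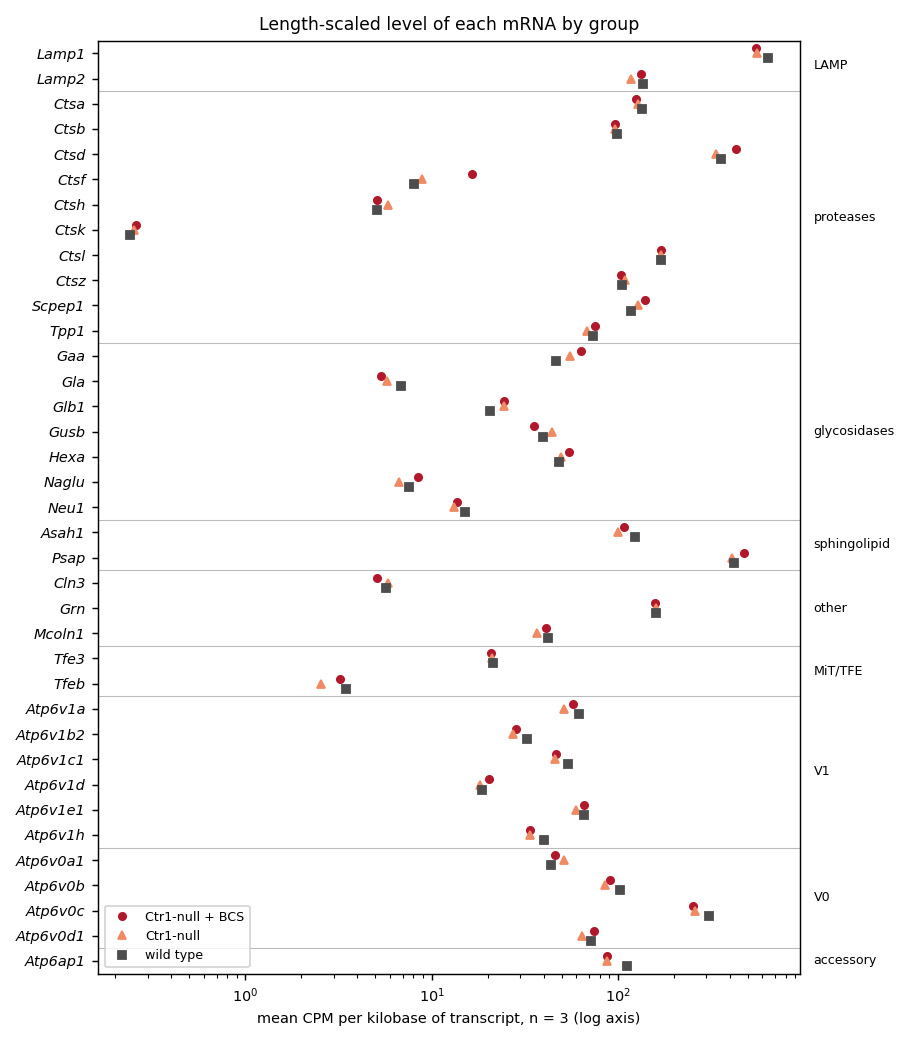
Mean CPM per kilobase of transcript of the 37 members on a log axis, with a point for the mean of 3 libraries in Ctr1-null + BCS, Ctr1-null and wild type cells. Lamp1 is highest at 557 with BCS, 558 in Ctr1-null and 641 in wild type cells, and Ctsk is lowest at 0.259, 0.252 and 0.241.

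Against wild type cells, Ctr1-null + BCS cells had more Ctsf and Gaa RNA and less Gla, Atp6v0c and Atp6ap1 RNA, and the other 32 members did not pass the test. These 5 members are 13.5% of the 37, with 2 higher and 3 lower, against 15.8% of all 18408 genes, of which 8.56% were higher and 7.28% lower, so the share of members called was near the background. The median log2 fold change of the members was -0.028, against 0.0065 over all genes. The groups did not overlap in 5 members that were higher with BCS (Gaa, Ctsd, Ctsf, Scpep1 and Psap; 20% of all genes) and in 8 that were lower (Atp6v0b, Atp6v0c, Atp6ap1, Gla, Gusb, Lamp1, Cln3 and Asah1; 17.1% of all genes). With wild type replicate 1 left out, 9 members were called, 5 higher (Gaa, Glb1, Ctsd, Ctsf and Scpep1; 15.7% of all genes) and 4 lower (Atp6v0c, Atp6v1b2, Atp6v1h and Atp6ap1; 15.3%), against 31% of all genes in either direction, and without Ctr1-null replicate 1 the count stayed at 5, against 18.9%. Without that wild type library the groups did not overlap in 12 members that were higher and 14 that were lower, against 33.5% and 31.1% of all genes. DESeq2 called 7 members, adding Lamp1 and Asah1 on the lower side, against 22.1% of all genes. None was called without BCS replicate 3, wild type replicate 2 or wild type replicate 3. Calls over all genes ranged from 568 to 5840 when 1 library was left out. The share of all genes in each of these 3 fits is not given here, so the loss cannot be set against it.

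Within the null genotype, Ctr1-null + BCS against Ctr1-null, no member passed edgeR's test, against 0.0543% of all genes, or 10 genes. At an unadjusted p under 0.05, 7 members were higher and 1 lower, against 8.34% and 6.37% of all genes. DESeq2 called 3 members, Ctsf and Ctsd higher and Gusb lower, against 3.86% of all genes, 2.13% higher and 1.73% lower. The groups did not overlap in 9 members that were higher with BCS (Tfeb, Atp6v0d1, Atp6v1d, Atp6v1e1, Naglu, Ctsd, Ctsf, Tpp1 and Psap; 13.4% of all genes) and in 2 that were lower (Gusb and Ctsh; 10.9% of all genes). Without Ctr1-null replicate 1 these counts were 9 and 6, against 18.2% and 16.3%. When wild type replicate 1, which enters only the shared estimate of spread here, was left out, Gusb was called, against 0.972% of all genes.

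In Ctr1-null against wild type cells no member passed edgeR's test, against 0.0109% of all genes, or 2 genes. At an unadjusted p under 0.05, 1 member was higher and 12 were lower, against 9.08% and 8.52% of all genes. DESeq2 called 5 members, all lower (Lamp1, Asah1, Atp6v0b, Atp6v0c and Atp6ap1), against 2.88% of all genes on that side, and limma-voom called none, against 0.0326%. The fold change was below 0 in 26 members, against 49.3% of all genes, with a median of -0.094 over the members and 0.005 over all genes. The groups did not overlap in 10 members, all lower in the null cells (Tfeb, Atp6v0b, Atp6v0c, Atp6v1b2, Atp6ap1, Neu1, Lamp1, Lamp2, Mcoln1 and Asah1), against 8.62% of all genes lower and 9.49% higher. Without wild type replicate 1, 11 members were called, 4 higher (Atp6v0a1, Glb1, Gusb and Ctsh; 9.22% of all genes) and 7 lower (Tfeb, Atp6v1a, Atp6v1b2, Atp6v1e1, Atp6v1h, Atp6ap1 and Asah1; 8.05%), against 17.3% of all genes in either direction, and without Ctr1-null replicate 1 none was called, against 0.0106%. Members whose groups did not overlap numbered 8 higher and 15 lower without the wild type library, against 25.4% and 25.6% of all genes, and 3 higher and 11 lower without the Ctr1-null library, against 19.1% and 17.9%. The number of calls in this comparison thus depended on 1 wild type library and also on the tool.

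In 5 members, Lamp1, Asah1, Atp6v0b, Atp6v0c and Atp6ap1, all 6 null libraries, with or without BCS, lay below all 3 wild type libraries. That is 13.5% of the members, against 5.63% of all genes, and no member had all 6 above wild type, against 6.39%. The count was 11 without wild type replicate 1, 29.7% of the members against 20.2% of all genes, and the same 5 were among them. It was 5 without Ctr1-null replicate 1, against 10.3% of all genes. Both comparisons with wild type share the wild type libraries, and so the low values in both null groups are not independent of each other.

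**Figure D3:**
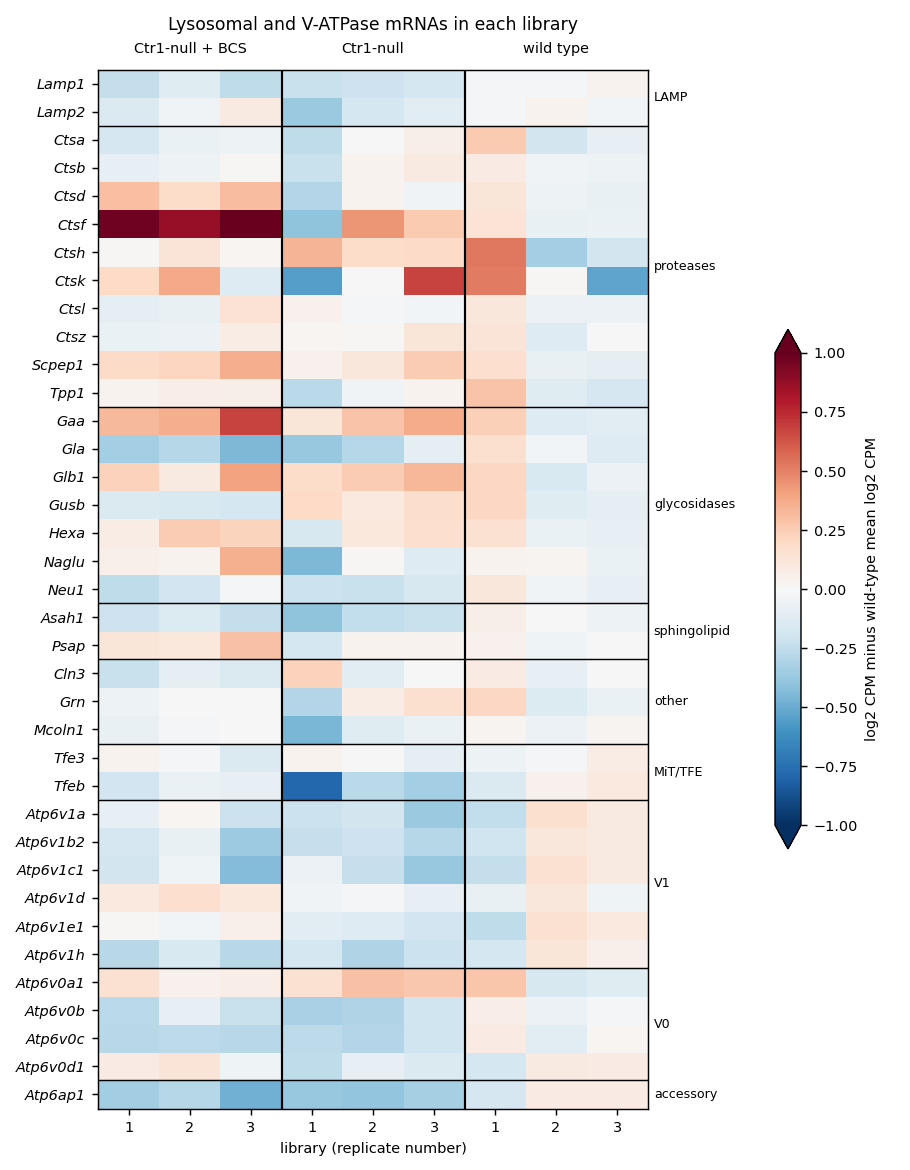
Heat map of the 37 members, ordered by role, in 9 libraries, with columns from left to right for Ctr1-null + BCS, Ctr1-null and wild type cells. Colour gives log2 CPM minus the mean log2 CPM of the wild type libraries and stops at -1 and 1. Ctsf stands out in the 3 BCS libraries, and the enzymes of wild type replicate 1 are above those of wild type replicates 2 and 3.

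Neither MiT/TFE factor passed the test in any comparison. Tfeb (ENSMUSG00000023990.18, chromosome 17, 47737030 to 47792419, plus strand) had 6.99, 7.61 and 7.53 CPM in Ctr1-null + BCS cells, 4.62, 6.59 and 6.30 CPM in Ctr1-null cells and 7.22, 8.19 and 8.53 CPM in wild type cells. The BCS libraries all lay above the Ctr1-null libraries and overlapped wild type, while the Ctr1-null libraries all lay below wild type. Its log2 fold change was 0.34 ± 0.15 in BCS against Ctr1-null, -0.11 ± 0.15 in BCS against wild type and -0.45 ± 0.15 in Ctr1-null against wild type (edgeR adjusted p = 0.340, 0.636 and 0.188). Without wild type replicate 1 the change in Ctr1-null against wild type was -0.52 (adjusted p = 0.0491), and without Ctr1-null replicate 1 it was -0.31 (0.219) there and 0.20 (0.638) in BCS against Ctr1-null. Tfe3 (ENSMUSG00000000134.17, chromosome X, 7762560 to 7775202, plus strand), the related factor, had 72.2, 69.9 and 63.8 CPM with BCS, 71.9, 70.6 and 66.1 CPM in Ctr1-null cells and 67.8, 69.5 and 73.9 CPM in wild type cells, and all 3 groups overlapped. Its fold changes lay between -0.037 and -0.017, with 95% intervals of -0.18 to 0.15 in BCS against Ctr1-null, -0.20 to 0.13 in BCS against wild type and -0.18 to 0.15 in Ctr1-null against wild type. With library size alone they were above 0, as was the median of all genes, and their sign also turned without some single libraries.

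The lysosomal membrane glycoproteins coat the inner face of the lysosomal membrane. Lamp1 (ENSMUSG00000031447.7, chromosome 8, 13159161 to 13175338, plus strand) had 1209, 1317 and 1197 CPM with BCS, 1227, 1238 and 1266 CPM in Ctr1-null cells and 1410.3, 1412 and 1467 CPM in wild type cells. All 6 null libraries lay below wild type, and the BCS and Ctr1-null libraries overlapped. Its log2 fold change was -0.20 ± 0.075 in BCS against wild type and -0.20 ± 0.075 in Ctr1-null against wild type, and neither passed edgeR's test (adjusted p = 0.0926 and 0.223), whereas both passed in DESeq2 (adjusted p = 0.00553 and 0.0269). BCS against Ctr1-null gave a 95% interval of -0.17 to 0.16 on the log2 scale. Lamp2, whose splice forms include the receptor of chaperone-mediated autophagy, had 447, 481 and 524 CPM with BCS, 380.4, 437 and 456 CPM in Ctr1-null cells and 488, 506 and 485 CPM in wild type cells. Its Ctr1-null libraries lay below wild type without passing the test (-0.22 ± 0.092, adjusted p = 0.265), and its BCS libraries overlapped both other groups.

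Among the 10 proteases, 1 was called in BCS against wild type, Ctsf, and none in the other 2 comparisons. That is 10.0% of the proteases, against 15.8% of all genes in BCS against wild type. Ctsf (ENSMUSG00000083282.2, chromosome 19, 4855130 to 4860918, plus strand), the cysteine protease cathepsin F, had 31.2, 29.1 and 38.3 CPM with BCS, 12.0, 21.6 and 19.0 CPM in Ctr1-null cells and 17.5, 15.1 and 15.2 CPM in wild type cells. All BCS libraries lay above all libraries of both other groups, whose values overlapped. Ctsf rose in Ctr1-null + BCS cells 2.06-fold against wild type, a log2 fold change of 1.04 ± 0.20 with a 95% interval of 0.60 to 1.48 (edgeR adjusted p = 0.0116). Against Ctr1-null cells the change was 0.90 ± 0.20 with an interval of 0.47 to 1.34 and did not pass edgeR's test (adjusted p = 0.106), though it passed in DESeq2 (adjusted p = 0.00119). Ctr1-null against wild type gave 0.14 ± 0.20 (adjusted p = 0.739), or 0.35 without Ctr1-null replicate 1 (0.206). The call against wild type was narrowly lost without BCS replicate 3, wild type replicate 2 or wild type replicate 3, with adjusted p of 0.053, 0.0531 and 0.0571, and without Ctr1-null replicate 1 the change against Ctr1-null was 0.69 (0.174).

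Ctsd (ENSMUSG00000007891.16, chromosome 7, 142375911 to 142388038, minus strand), the aspartic protease cathepsin D, had 944, 869.5 and 950.0 CPM with BCS, 625, 784 and 749 CPM in Ctr1-null cells and 834, 739.6 and 730.0 CPM in wild type cells. Its BCS libraries were above all libraries of both other groups, and wild type replicate 1 and Ctr1-null replicate 1 were the extremes of the rest. The log2 fold change was 0.36 ± 0.10 against Ctr1-null and 0.26 ± 0.10 against wild type and did not pass (edgeR adjusted p = 0.186 and 0.109), while without wild type replicate 1 the change against wild type was 0.32 (adjusted p = 0.0421). Scpep1, a serine carboxypeptidase-like protein, also had BCS libraries above wild type, with 279.7, 285 and 315 CPM with BCS, 252, 266 and 292 CPM in Ctr1-null and 275, 233 and 231 CPM in wild type cells (0.25 ± 0.096, adjusted p = 0.101). Ctsh (ENSMUSG00000032359.14, chromosome 9, 90054152 to 90076089, plus strand), an aminopeptidase among the cathepsins, went the other way within the null genotype, with 8.04, 8.71 and 8.07 CPM with BCS, 10.1, 9.03 and 9.11 CPM in Ctr1-null and 11.5, 6.30 and 7.01 CPM in wild type cells. The BCS libraries of Ctsh lay below the Ctr1-null libraries and inside the wild type range (-0.18 ± 0.20, adjusted p = 0.713). Ctsb and Ctsl, abundant cysteine proteases, had changes of -0.041 and -0.0042 in BCS against wild type, and Ctsz, Ctsa and Tpp1, the last 2 a carboxypeptidase and a tripeptidyl peptidase, had changes of -0.017, -0.11 and 0.038, with Ctsa at 0.027 without wild type replicate 1. Ctsk was under 1 CPM in every library, between 0.238 and 0.558 CPM, with a wide 95% interval of -0.74 to 0.96 for its log2 fold change in BCS against wild type.

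The 7 glycosidases remove sugars from glycans, glycolipids and glycogen. In BCS against wild type 2 of them, Gaa and Gla, were called in opposite directions, 28.6% against 15.8% of all genes. Gaa (ENSMUSG00000025579.14, chromosome 11, 119267887 to 119285454, plus strand), the acid alpha-glucosidase that breaks down glycogen, had 211, 217 and 269 CPM with BCS, 183, 205 and 218 CPM in Ctr1-null cells and 199, 154 and 156 CPM in wild type cells. Its BCS libraries were all above wild type, with BCS replicate 3 the highest, and overlapped Ctr1-null, and the Ctr1-null libraries overlapped wild type only through wild type replicate 1. Gaa rose by 36.8% against wild type (0.45 ± 0.13, edgeR adjusted p = 0.0429), with 0.20 ± 0.13 against Ctr1-null and 0.25 ± 0.13 in Ctr1-null against wild type (adjusted p = 0.505 and 0.341). The call was lost without any 1 of the BCS libraries, Ctr1-null replicates 2 and 3 or wild type replicates 2 and 3, at adjusted p of 0.0541 to 0.163, and without BCS replicate 3 the change was 0.33.

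Gla (ENSMUSG00000031266.6, chromosome X, 134588149 to 134601125, minus strand), alpha-galactosidase A, which trims glycosphingolipids and is deficient in Fabry disease, had 17.1, 17.8 and 15.9 CPM with BCS, 16.6, 17.8 and 20.2 CPM in Ctr1-null cells and 24.2, 21.2 and 19.8 CPM in wild type cells. The BCS libraries were all below wild type and overlapped Ctr1-null, and Ctr1-null replicate 3 was above wild type replicate 3. Gla fell by 22.1% in BCS against wild type (-0.36 ± 0.11, edgeR adjusted p = 0.0494), near the threshold, and was -0.26 ± 0.11 in Ctr1-null against wild type (adjusted p = 0.263). The call was kept without Ctr1-null replicate 1 or 3 and lost without each of the 7 other libraries, at adjusted p of 0.0668 to 0.165.

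Gusb (ENSMUSG00000025534.17, chromosome 5, 129989011 to 130003049, minus strand), beta-glucuronidase, had 96.8, 96.3 and 94.3 CPM with BCS, 123, 114 and 120.3 CPM in Ctr1-null cells and 123, 98.4 and 100.2 CPM in wild type cells. The BCS libraries were the lowest of all 9, and the Ctr1-null libraries lay inside a wild type range that wild type replicate 1 widened. The log2 fold change was -0.31 ± 0.091 against Ctr1-null and -0.16 ± 0.091 against wild type (edgeR adjusted p = 0.188 and 0.240), and against Ctr1-null it passed in DESeq2 (adjusted p = 0.0359). The change against wild type was -0.059 without wild type replicate 1. Glb1 (ENSMUSG00000045594.10, chromosome 9, 114401076 to 114474898, plus strand), the lysosomal beta-galactosidase, had 57.7, 52.5 and 65.1 CPM with BCS, 56.0, 58.9 and 62.1 CPM in Ctr1-null cells and 57.03, 44.5 and 47.3 CPM in wild type cells. Only wild type replicate 1 of the wild type libraries reached the null values, and without it Glb1 was called in BCS and in Ctr1-null against wild type, at 0.34 (adjusted p = 0.0257) and 0.36 (0.0335). With it the changes were 0.24 ± 0.11 and 0.25 ± 0.11 (adjusted p = 0.168 and 0.280). Hexa, a beta-hexosaminidase subunit, Naglu, which acts on heparan sulfate, and the sialidase Neu1 had log2 fold changes of 0.18, 0.16 and -0.16 in BCS against wild type, with no call. Naglu had 20.1, 19.8 and 24.8 CPM with BCS, 14.2, 19.5 and 17.7 CPM in Ctr1-null and 19.9, 19.7 and 18.5 CPM in wild type cells, so its BCS libraries were above Ctr1-null by 0.33 ± 0.13 (adjusted p = 0.290), or 0.21 without Ctr1-null replicate 1 (0.580).

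**Figure D4:**
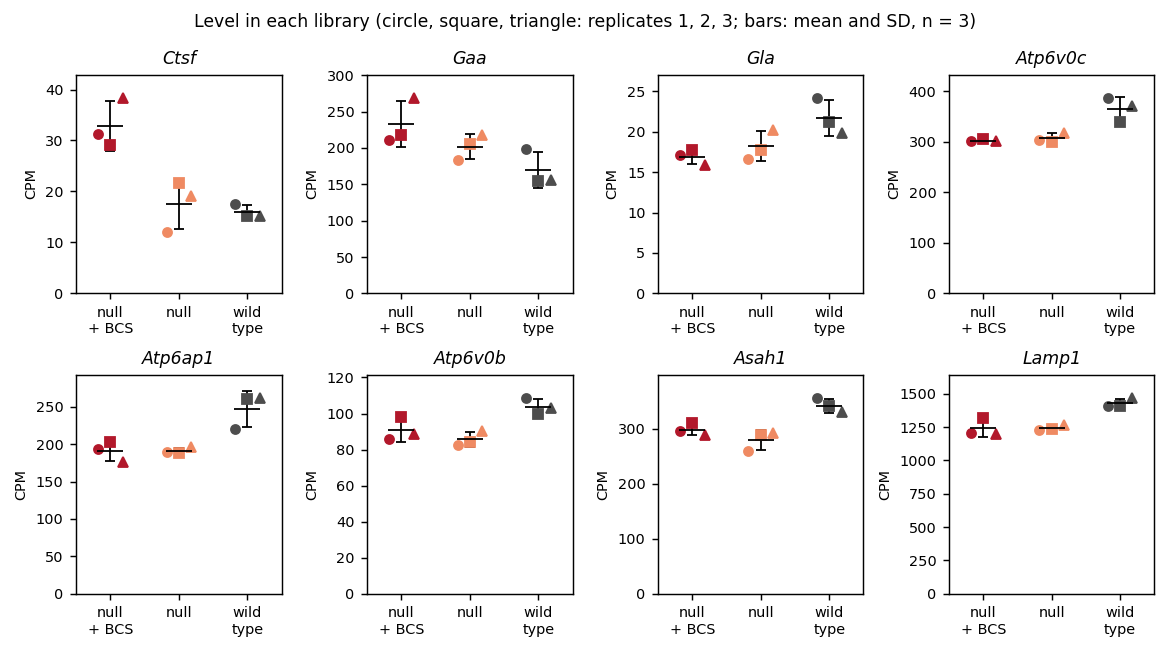
CPM in every library for Ctsf, Gaa, Gla, Atp6v0c, Atp6ap1, Atp6v0b, Asah1 and Lamp1, with groups from left to right Ctr1-null + BCS, Ctr1-null and wild type, a circle, square and triangle for replicates 1, 2 and 3, and bars for mean ± SD (n = 3). Ctsf is highest in the 3 BCS libraries, at 29.1 to 38.3 CPM, and in Atp6v0c, Atp6ap1, Atp6v0b, Asah1 and Lamp1 the 6 null libraries lie below the 3 wild type libraries.

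Asah1 and Psap act in sphingolipid breakdown. Asah1 (ENSMUSG00000031591.14, chromosome 8, 41340197 to 41374773, minus strand), acid ceramidase, had 296, 311 and 289.7 CPM with BCS, 259, 289 and 293 CPM in Ctr1-null cells and 356, 341 and 330.2 CPM in wild type cells. All 6 null libraries lay below wild type. The log2 fold change was -0.20 ± 0.076 in BCS and -0.29 ± 0.076 in Ctr1-null against wild type and did not pass edgeR's test (adjusted p = 0.106 and 0.131), and both passed in DESeq2 (adjusted p = 0.0276 and 0.00456). Psap, whose product is cut into the saposin activators, had 1219, 1208 and 1377 CPM with BCS, 994, 1146 and 1149.8 CPM in Ctr1-null cells and 1152, 1089 and 1122 CPM in wild type cells. Its BCS libraries were above both other groups, by 0.21 ± 0.091 and 0.18 ± 0.091 against Ctr1-null and wild type (adjusted p = 0.328 and 0.207).

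The members with other lysosomal functions, Mcoln1, Cln3 and Grn, showed no call. Mcoln1, the cation channel TRPML1 that releases lysosomal calcium, had 83.0, 86.5 and 87.0 CPM with BCS, 63.8, 80.7 and 83.5 CPM in Ctr1-null cells and 89.3, 84.0 and 89.3 CPM in wild type cells. The Ctr1-null libraries of Mcoln1 lay below wild type, narrowly except for replicate 1 (-0.20 ± 0.099, edgeR adjusted p = 0.314), and without that library the change was -0.094. Cln3 (ENSMUSG00000030720.16, chromosome 7, 126571207 to 126585817, minus strand), the membrane protein lost in juvenile Batten disease, had 15.6, 17.0 and 16.5 CPM with BCS, 21.3, 16.8 and 18.2 CPM in Ctr1-null cells and 19.2, 17.2 and 18.2 CPM in wild type cells. Its BCS libraries lay below wild type and overlapped Ctr1-null, with changes of -0.20 ± 0.10 against Ctr1-null and -0.15 ± 0.10 against wild type (adjusted p = 0.405 and 0.329), and without Ctr1-null replicate 1 the change against Ctr1-null was -0.097. The span of Cln3 overlaps that of Apobr, at 11.1 CPM in the mean against 17.8 CPM for Cln3, and the division of any reads they share is uncertain. Grn, progranulin, had changes of -0.024 in BCS and -0.017 in Ctr1-null against wild type.

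The V-ATPase members had mostly negative fold changes in Ctr1-null against wild type, and none was called. Of the 11 genes 10 had a fold change below 0, against 49.3% of all genes, with a median of -0.23, against 0.005. At an unadjusted p under 0.05, 6 were lower and none higher, against 8.52% and 9.08% of all genes. The median stayed between -0.244 and -0.179 under the other scalings, with 9 or 10 of 11 below 0, and was -0.271 without wild type replicate 1. That library was the lowest of the wild type in 8 of the 11. Relative to the wild type mean, the 11 genes averaged -0.0995, 0.0598 and 0.0397 log2 units in wild type replicates 1, 2 and 3. The Ctr1-null libraries averaged -0.172, -0.166 and -0.193. Medians without wild type replicates 2 or 3 are not reported here. In BCS against wild type 7 of 11 were below 0, against 49.3% of all genes, and the median was -0.19. Atp6v0c and Atp6ap1 were called lower there, 18.2% of the 11, against 7.28% of all genes lower and 15.8% in either direction. In BCS against Ctr1-null the median was 0.042 with none called. Of the lysosomal enzymes 9 of 18 were below 0 in Ctr1-null against wild type, with a median of 0.019, and without wild type replicate 1 this was 5 of 18 with a median of 0.0901, against 0.02 over all genes. The difference between the V-ATPase genes and the enzymes was not tested. The shift was not particular to the V-ATPase members. Of 18 further lysosomal membrane proteins 14 were below 0 in this comparison, with a median of -0.20, and Lamp1 and Lamp2 had a median of -0.21. Of 15 further V-ATPase subunits and assembly factors 11 were below 0, with a median of -0.13. Of 34 further hydrolases and cofactors 20 were below 0, with a median of -0.045.

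In the V0 part, Atp6v0c (ENSMUSG00000024121.13, chromosome 17, 24163866 to 24169702, minus strand) had 301, 305 and 302 CPM with BCS, 304, 299 and 317 CPM in Ctr1-null cells and 387, 339.6 and 369.9 CPM in wild type cells. All 6 null libraries lay below wild type, and BCS and Ctr1-null overlapped. Atp6v0c fell by 17.2% in BCS against wild type (-0.27 ± 0.073, edgeR adjusted p = 0.0339), and Ctr1-null against wild type gave a similar -0.25 ± 0.073 that did not pass edgeR's test (adjusted p = 0.145) and passed in DESeq2 (adjusted p = 0.00669). The BCS against Ctr1-null interval was -0.18 to 0.14. The call against wild type was lost without any 1 of the BCS libraries, Ctr1-null replicate 2 or wild type replicates 2 and 3, at adjusted p of 0.0551 to 0.123. The 2 annotated Atp6v0c pseudogenes held 0.00648 and 0.0602 CPM. Atp6v0b (ENSMUSG00000033379.13, chromosome 4, 117884326 to 117887333, minus strand), a further proteolipid of the ring, had 85.7, 98.1 and 88.8 CPM with BCS, 82.8, 84.1 and 90.2 CPM in Ctr1-null cells and 108, 99.5 and 103 CPM in wild type cells. The null libraries were again all below wild type, in BCS by a narrow margin (-0.19 ± 0.076 and, in Ctr1-null, -0.27 ± 0.076, adjusted p = 0.115 and 0.141). In DESeq2 the change of Atp6v0b in Ctr1-null against wild type passed (adjusted p = 0.0189).

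Atp6v0a1 (ENSMUSG00000019302.16, chromosome 11, 101009452 to 101063719, plus strand), 1 of the alternative a subunits through which protons cross, was the V-ATPase member with a fold change above 0 in Ctr1-null against wild type. It had 194, 179.8 and 183 CPM with BCS, 194, 214 and 211 CPM in Ctr1-null cells and 212, 157 and 161 CPM in wild type cells. Wild type replicate 1 lay among the Ctr1-null libraries and the 2 other wild type libraries below them, and the change was 0.23 ± 0.11 (edgeR adjusted p = 0.329), or 0.38 without that library (adjusted p = 0.0109). Atp6v0d1, which joins V0 to the rotor, had 124, 128 and 113 CPM with BCS, 98.0, 110.0 and 106 CPM in Ctr1-null cells and 103, 124 and 124 CPM in wild type cells, with every BCS library above every Ctr1-null library (0.22 ± 0.091, adjusted p = 0.311).

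Atp6ap1 (ENSMUSG00000019087.13, chromosome X, 74297097 to 74304721, plus strand), the accessory protein Ac45 that takes part in pump assembly, had 193, 202 and 177 CPM with BCS, 189, 188 and 196 CPM in Ctr1-null cells and 219.8, 260.5 and 261 CPM in wild type cells. The lowest wild type library, replicate 1, was still above every null library. Atp6ap1 fell by 22.8% in BCS against wild type (-0.37 ± 0.088, edgeR adjusted p = 0.0226), and Ctr1-null against wild type gave -0.37 ± 0.088 (adjusted p = 0.111). BCS against Ctr1-null gave an interval of -0.20 to 0.19. Both changes against wild type passed without wild type replicate 1, at -0.46 (adjusted p = 0.00318) with BCS and -0.45 (0.00592) without BCS. The BCS call was lost without BCS replicates 1 or 3 or wild type replicates 2 or 3, at adjusted p of 0.0756 to 0.0997.

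The 6 V1 subunits all had fold changes below 0 in Ctr1-null against wild type, from -0.26 in Atp6v1a to -0.044 in Atp6v1d, and none was called. Atp6v1a, the catalytic subunit, had 245, 264 and 224 CPM with BCS, 224, 229 and 201 CPM in Ctr1-null cells and 219, 290.2 and 277 CPM in wild type cells. Wild type replicate 1 lay among the null libraries and replicates 2 and 3 lay above them, and the same held for the regulatory subunit Atp6v1h, with 67.3, 73.4 and 67.4 CPM with BCS, 72.4, 66.4 and 70.4 CPM in Ctr1-null and 72.4, 88.7 and 84.8 CPM in wild type cells. In BCS against wild type the changes of Atp6v1a and Atp6v1h were -0.10 ± 0.11 and -0.24 ± 0.087 (edgeR adjusted p = 0.575 and 0.0897). Without wild type replicate 1 the change of Atp6v1a was -0.22 (adjusted p = 0.0962) with BCS, and Atp6v1h was called in both comparisons with wild type, at -0.33 (adjusted p = 0.0107) with BCS and -0.32 (0.0212) without BCS. Atp6v1b2, of the catalytic head, and Atp6v1c1, of the stalk, had -0.20 and -0.22 in BCS against wild type, and Atp6v1c1 had -0.34 without wild type replicate 1. The rotor subunit Atp6v1d and the stator subunit Atp6v1e1 had every BCS library above every Ctr1-null library, by 0.16 ± 0.070 and 0.15 ± 0.10 (adjusted p = 0.323 and 0.509).

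**Figure D5:**
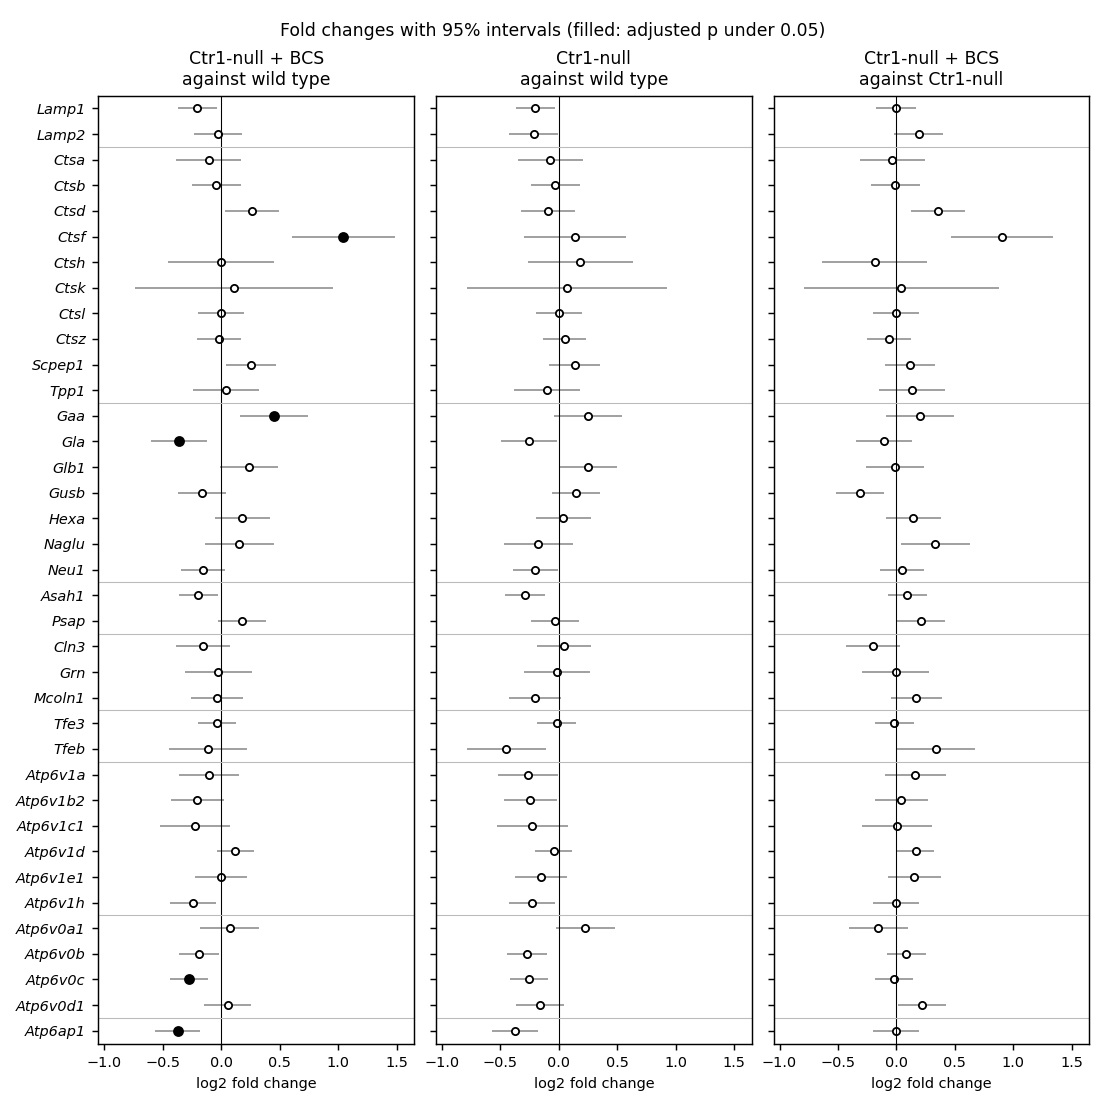
Log2 fold change of the 37 members with 95% intervals from edgeR, in panels from left to right for Ctr1-null + BCS against wild type, Ctr1-null against wild type and Ctr1-null + BCS against Ctr1-null, with filled points for an adjusted p under 0.05. Filled points appear in the first panel alone, for Ctsf at 1.04, Gaa at 0.45, Gla at -0.36, Atp6v0c at -0.27 and Atp6ap1 at -0.37.

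The rest of the pathway was followed in 101 further genes, of which 95 were tested. In BCS against wild type 7 were higher and 13 lower, 21.1% of the 95 against 15.8% of all genes, and no gene was called in BCS against Ctr1-null or in Ctr1-null against wild type. At an unadjusted p under 0.05, 14 of the 95 were higher and 6 lower in BCS against Ctr1-null, against 8.34% and 6.37% of all genes. In Ctr1-null against wild type 3 were higher and 21 lower, against 9.08% and 8.52%. With wild type replicate 1 left out, 15 were called higher and 20 lower in BCS against wild type, 36.8% against 31% of all genes, and 6 higher and 15 lower in Ctr1-null against wild type, 22.1% against 17.3%. Without Ctr1-null replicate 1 the calls in BCS against wild type were 10 higher and 15 lower, 26.3% against 18.9% of all genes. DESeq2 called 9 higher and 16 lower in BCS against wild type, 1 higher and 3 lower in BCS against Ctr1-null and 1 higher and 11 lower in Ctr1-null against wild type, or 26.3%, 4.21% and 12.6% of the 95 against 22.1%, 3.86% and 5.64% of all genes. All 6 null libraries lay below wild type in 15 of the 95, 15.8% against 5.63% of all genes.

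Of 15 further V-ATPase subunits and assembly factors, 2 rose and 4 fell in BCS against wild type, 40.0% against 15.8% of all genes. Tcirg1, an alternative a subunit, and Atp6ap2, the prorenin receptor, fell by 0.38 ± 0.077 and 0.39 ± 0.085 on the log2 scale (edgeR adjusted p = 0.0148 and 0.0187). Tcirg1 had 98.0, 103 and 94.0 CPM with BCS, 92.3, 100.1 and 107 CPM in Ctr1-null and 124, 127 and 134 CPM in wild type cells, with every null library below wild type. Dmxl2, of the complex that assembles the pump, and the assembly factor Tmem199 fell by 0.45 and 0.36, while Wdr7, the partner of Dmxl proteins, rose by 0.24 (adjusted p = 0.0160, 0.0285 and 0.0435). Atp6v0a4, a kidney form of the a subunit, was called higher (1.21, adjusted p = 0.0422) at under 1 CPM. In Ctr1-null against wild type Tcirg1 and Atp6ap2 had changes of -0.36 and -0.36 (adjusted p = 0.0988 and 0.113).

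Of 34 further hydrolases and cofactors tested, 3 rose and 2 fell in BCS against wild type, 14.7% against 15.8% of all genes, a share near the background. Idua, the alpha-L-iduronidase of glycosaminoglycan breakdown, rose by 0.72 ± 0.17, the aspartylglucosaminidase Aga by 0.52 ± 0.10 and the cathepsin Ctso by 1.22 ± 0.33 (edgeR adjusted p = 0.0224, 0.0148 and 0.0362). Among those that fell, Galc, galactosylceramidase, fell by 0.23 (adjusted p = 0.0392).

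Sorting of hydrolases to the lysosome, by mannose 6-phosphate tags and their receptors, had 3 of 9 genes lower and none higher in BCS against wild type, 33.3% against 7.28% of all genes lower and 8.56% higher. Sort1, sortilin, had 38.2, 39.7 and 47.1 CPM with BCS, 35.8, 47.5 and 41.0 CPM in Ctr1-null cells and 67.4, 68.0 and 67.9 CPM in wild type cells, with no overlap between the null libraries and wild type. Sort1 fell by 0.70 ± 0.11 in BCS against wild type (edgeR adjusted p = 0.00755) and was -0.71 ± 0.11 in Ctr1-null against wild type (adjusted p = 0.0707). Gnptab, a subunit of the phosphotransferase that makes the tag, and M6pr, the cation-dependent receptor of the tag, fell by 0.43 and 0.43 in BCS against wild type (adjusted p = 0.00781 and 0.0154).

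Of 18 further membrane proteins 1 rose and 3 fell in BCS against wild type, 22.2% against 15.8% of all genes. Scarb2, the receptor that carries glucocerebrosidase to lysosomes, rose by 0.43, and Ostm1, the partner of the chloride transporter Clcn7, fell by 0.46 ± 0.081, while the tetraspanin Cd63 and the sialomucin Cd164 each fell by 0.30 (edgeR adjusted p = 0.0412, 0.00940, 0.0347 and 0.0330). Among 19 genes of the nutrient control of MiT/TFE factors 2 were called there, 10.5% against 15.8% of all genes, where Rragd rose by 1.44 ± 0.31 and Rragb fell by 0.73 ± 0.20 (adjusted p = 0.0180 and 0.0351). Both encode Rag GTPases that link amino acid levels to mTORC1 at the lysosome. Rragd had 7.64, 6.59 and 7.29 CPM with BCS, 8.43, 5.68 and 6.20 CPM in Ctr1-null and 4.22, 1.81 and 1.86 CPM in wild type cells, and was the 1 gene of the 95 with all 6 null libraries above wild type. In Ctr1-null against wild type Rragd and Rragb had changes of 1.36 and -0.76 (adjusted p = 0.104 and 0.129).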

How the data were processed

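RNA of 9 libraries was extracted with Nucleospin RNA kits and prepared with Illumina TruSeq kits, per the labels' protocols. Named in the submitters' processing notes are the build GRCm38 and FastQC, STAR, Salmon and DESeq2, with no versions or roles. The authors deposited estimated counts per gene, written as whole numbers and not normalised. They also deposited a scaled table, whose signal values equal those counts divided by a factor per gene and sample, and it was used here only to recover the factors for an alternative.

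The test was edgeR's quasi-likelihood test (version 4.0.16, R 4.3.3) with TMM factors, on all 9 libraries in 3 groups (6 residual degrees of freedom, common biological coefficient of variation 0.169), after filterByExpr (minimum count 10, minimum total 15) left 18408 of 52661 genes. The p-values were 2-sided, adjusted by Benjamini and Hochberg over all tested genes, with calls at an adjusted p under 0.05. SE and 95% intervals come from this fit. Groups that do not overlap are compared by CPM in each library. CPM per kb uses 1 GENCODE M21 transcript per gene. Coordinates are GENCODE M21 on GRCm38, and promoters are RefSeq windows on GRCm38.p6. A count of 0 allows 3 counts, 0.0524 to 0.077 CPM, and such floors cover counting error only, as reads carry no molecular identifiers.

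The labels do not state separate cultures, so p-values may measure technical spread alone. The kit does not mark strand. Of the members 16 overlap the span of another gene, 13 of these on the opposite strand. Spans include introns, and overlap of exons was not checked. Reads from any shared exon bases cannot be divided with certainty, which may apply to Cln3 and Apobr, Ctsa and Pltp, or Glb1 and Tmppe.

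The members, lists and rules were chosen with earlier results of these data known. Members were given in every library when called, among the 3 highest or 3 lowest fold changes of a comparison, or without overlap with wild type in the same direction in both null groups, together with Tfeb, Tfe3 and Slc31a1. Of the other pathway lists called genes are named, or else the 2 with the smallest p. A called gene of these lists is not reported here. Further members with values in every library were named after their values were seen: Lamp2, Scpep1, Naglu, Psap, Mcoln1, Atp6v0d1, Atp6v1a and Atp6v1h, and likewise the marker Pdgfra. The library values of the markers Col3a1, Col1a1, Col1a2, Pdgfrb, Vim and Nfatc1 were also picked after they were seen.

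The alternatives were DESeq2's size factors, library size alone, the factors of the scaled table, no filter, a stricter filter (at least 1 CPM in 3 libraries), DESeq2 1.42.0, limma-voom (limma 3.58.1), a fit of the 2 groups compared, a replicate block and leaving out each library. In counts simulated for the contrast of Ctr1-null with wild type (18408 genes), edgeR found 63 of 98 genes with a 2-fold change, 82 of 91 with a 4-fold change and 8 of 17848 without one. The members' log2 fold changes in this contrast lay between -0.45 and 0.25, smaller than any change simulated. The simulation therefore does not show how often changes of that size would be found. Python 3.11.15 with matplotlib 3.10.9 drew the figures.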

Additional observations from a re-analysis of the deposited data

How the results depend on the processing

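Ctr1-null + BCS against wild type gave 5 members called, 3 with library size alone, 3 with the factors of the scaled table and 3 with no filter. A fit of the 2 groups gave 2, and leaving out 1 library gave 0 to 9. Calls over all genes in this comparison lay between 568 and 5840 over all alternatives. They are not given here for these scalings, no filter and the fit of the 2 groups. Whether the members lost calls there more than all genes was not tested. Ctr1-null against wild type gave 5 in DESeq2, against 0, and 0 to 11 when 1 library was left out. Ctr1-null + BCS against Ctr1-null gave 1 with no filter (Ctsf), 3 in DESeq2 and 0 or 1 when 1 library was left out. Over all genes, Ctr1-null against wild type gave 2 calls, 265 with no filter, 1039 in DESeq2 and 3254 without wild type replicate 1, Ctr1-null + BCS against Ctr1-null gave 10, 114 with no filter, 711 in DESeq2 and 0 to 183 when 1 library was left out, and Ctr1-null + BCS against wild type gave 2916 and 568 to 5840 when 1 library was left out. Library size alone moved the median of all genes in Ctr1-null + BCS against wild type to 0.105 and that of the members to 0.0702. The cause of these changes was not tested.

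The sign of Tfe3, whose changes were close to 0, was not stable. With library size alone, where the medians of all genes were 0.105, 0.0558 and 0.0494 and Tfe3 stayed below them, it was 0.063 in Ctr1-null + BCS against wild type, 0.0341 in Ctr1-null against wild type and 0.029 in Ctr1-null + BCS against Ctr1-null, and with the stricter filter 0.000739 in Ctr1-null against wild type. Leaving out 1 library gave -0.0742 to 0.0101, -0.0453 to 0.0182 and -0.0607 to 0.0276 in these comparisons. Slc31a1 in Ctr1-null + BCS against Ctr1-null was 0.00193 in limma-voom and -0.367 to 0.337 when 1 library was left out.

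With a replicate block, 1 member was called in Ctr1-null + BCS against wild type (Ctsf) and 0 in the other comparisons, and the medians of the members were -0.0316, -0.0917 in Ctr1-null against wild type and 0.0397 in Ctr1-null + BCS against Ctr1-null. Over all genes the block gave 1543 calls in Ctr1-null + BCS against wild type and 2 in Ctr1-null + BCS against Ctr1-null. Same-numbered libraries had correlations of -0.483 to 0.429 and differently numbered ones of -0.452 to 0.557. These ranges do not show whether the numbers pair the libraries. The groups without overlap were recounted without wild type replicate 1 or Ctr1-null replicate 1, and the other pathway genes without these libraries and in DESeq2, choices made after seeing the data. Depth limits Ctsk, which had under 1 CPM in every library.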
